A study of Mus musculus with 12 samples.

Results

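The genes described here are 10 genes of bile acid synthesis, conjugation, transport and sensing, read from a table of 55450 mouse genes in which each was found by its symbol. They are the synthesis enzymes Cyp7a1, Cyp8b1, Cyp27a1 and Cyp7b1, the conjugation enzymes Slc27a5 and Baat, the transporters Slc10a1 and Abcb11, and the nuclear receptors Nr1h4 and Nr0b2. The study sequenced total RNA of 2 tissues, brain and liver, from males of 7 to 9 weeks of age whose genotype was wild type or vaultrc5-/-, that is, without the vault RNA gene Vaultrc5. There were 4 groups of 3 libraries, which are wild-type brain, knockout brain, wild-type liver and knockout liver. The genotype label of the controls is wild-type, while their titles call them flx, and no promoter, Cre line or treatment is named. The labels do not say that libraries with different numbers came from separate animals, so p-values measure the spread between these libraries, which may be technical. They give neither the hour of collection nor the feeding state.

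Bile acids are made from cholesterol in hepatocytes. In the classical route Cyp7a1 carries out the rate-limiting step and Cyp8b1 sets the share of cholic acid, while in the alternative route Cyp27a1 acts on the sterol side chain and Cyp7b1 on the ring of the resulting oxysterols. The products are joined to an amino acid, in mouse mainly taurine, pumped into bile, reabsorbed in the gut and taken up again from portal blood. Bile acids activate the receptor FXR (Nr1h4), which induces SHP (Nr0b2), a repressor of the synthesis enzymes. Cyp7a1 transcription is known to follow a daily rhythm in rodent liver. Brain has its own route of cholesterol removal through Cyp46a1.

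A brain library held 14844971 to 18567381 counts and a liver library 23247449 to 27155480. Vaultrc5 had 33 to 48 counts in wild-type liver and 1 to 4 in wild-type brain, against 0 in all 6 knockout libraries. The tissue labels fitted their defining markers, since Alb had at least 714287 counts in each liver library and at most 5 in brain, while Snap25 had at least 31003 in brain and at most 3 in liver. Levels are given in CPM, counts scaled to library size, on a TMM scale shared by the 12 libraries. In this scale 3 counts, the floor against which genes with 0 counts are set, equal 0.123 to 0.148 CPM in brain and 0.150 to 0.169 CPM in liver.

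In wild-type liver the bile acid genes spanned a wide range of levels. Per kilobase of exon, which allows genes to be compared, Slc10a1 was highest at 297 ± 46.2 CPM per kb (SD, n = 3) and Slc27a5 came next at 273 ± 19.8. Cyp27a1 followed at 207 ± 7.62, Abcb11 at 186 ± 20.9, Cyp8b1 at 173 ± 19.3, Cyp7b1 at 123 ± 61.2 and Baat at 122 ± 5.59 CPM per kb. Nr1h4 stood at 58.8 ± 7.54, Nr0b2 at 33.5 ± 13.0 and Cyp7a1 lowest at 12.9 ± 7.30 CPM per kb. Neighbours in this order had overlapping libraries except Slc27a5 over Cyp27a1, Baat over Nr1h4, and Nr1h4 over Nr0b2. The rate-limiting enzyme of the classical route was thus the least abundant of the 10 per kilobase, although its libraries overlapped those of Nr0b2.

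All 10 genes were higher in wild-type liver than in wild-type brain. edgeR's quasi-likelihood test, with Benjamini-Hochberg adjustment over 18850 genes, called 10 of 10, and the largest adjusted p was 0.000126 (Cyp7a1). This outcome was largely set in advance, because the 10 are genes of a liver pathway. Only 2 of them passed the count filter among the brain libraries, so the others entered this test through their liver counts. Of all genes tested, 78.6% were called in either direction (79.8% at an unadjusted p of 0.05, again 10 of 10), 34.7% higher in liver and 43.9% higher in brain. The median log2 difference, brain over liver, was -11.33 for the 10 genes and 0.21 for all genes. The median of the 10 is a fitted value and not a measured size, since most of them had few or 0 counts in brain. In bulk tissue, fewer cells of a type and less RNA per cell cannot be told apart. The brain and liver CPM depend on the scaling: with library totals alone the median over all genes moved from 0.21 to 1.05, and calls higher in brain and higher in liver went from 8275 and 6542 to 11635 and 3997. The 10 genes were called higher in liver under each scaling tried, and also with the knockout libraries in place of the wild-type ones.

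Only Cyp27a1 and Cyp7b1 of the 10 had enough counts in brain to be tested between genotypes there. Cyp27a1 had 78, 42 and 119 counts in the 3 wild-type brains and stood at 459, 431 and 459.8 CPM in the 3 wild-type livers. The log2 difference was -7.03 ± 0.38 (SE; adjusted p = 1.43e-06), a 131-fold lower level in brain. Cyp7b1 had 116, 158 and 130 counts in wild-type brain, and its log2 difference was -5.53 ± 0.39 (adjusted p = 6.25e-06), a 46.2-fold lower level. With library totals alone these differences were -6.19 and -4.68. Per kilobase, Cyp7b1 reached 2.64 ± 0.318 and Cyp27a1 1.57 ± 0.774 CPM per kb in wild-type brain. Cyp7b1 in brain is known for acting on neurosteroids and oxysterols.

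The other 8 genes were at or close to 0 in brain. Cyp7a1, Cyp8b1, Slc10a1 and Abcb11 had 0 counts in all 6 brain libraries, both genotypes included. Against the mean floor of 0.128 CPM in wild-type brain, with 3 counts taken per library, liver was at least 420-fold higher for Cyp7a1, 2639-fold for Cyp8b1, 5092-fold for Slc10a1 and 7461-fold for Abcb11. A few reads were counted for the rest, with Nr1h4 and Nr0b2 at a mean CPM below that floor, so their ratios rest on few reads. Wild-type brain held 9 counts of Nr1h4 and 9 of Baat in all, 7 of Nr0b2 and 12 of Slc27a5. The liver to brain ratio with its 95% counting interval was 1058 (558 to 2314) for Nr1h4 and 1854 (977 to 4055) for Baat. It was 382 (185 to 949) for Nr0b2 and 3902 (2234 to 7552) for Slc27a5. These intervals and floors cover counting error only, because no molecular identifiers are named and reads need not be separate molecules.

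**Figure D1:**
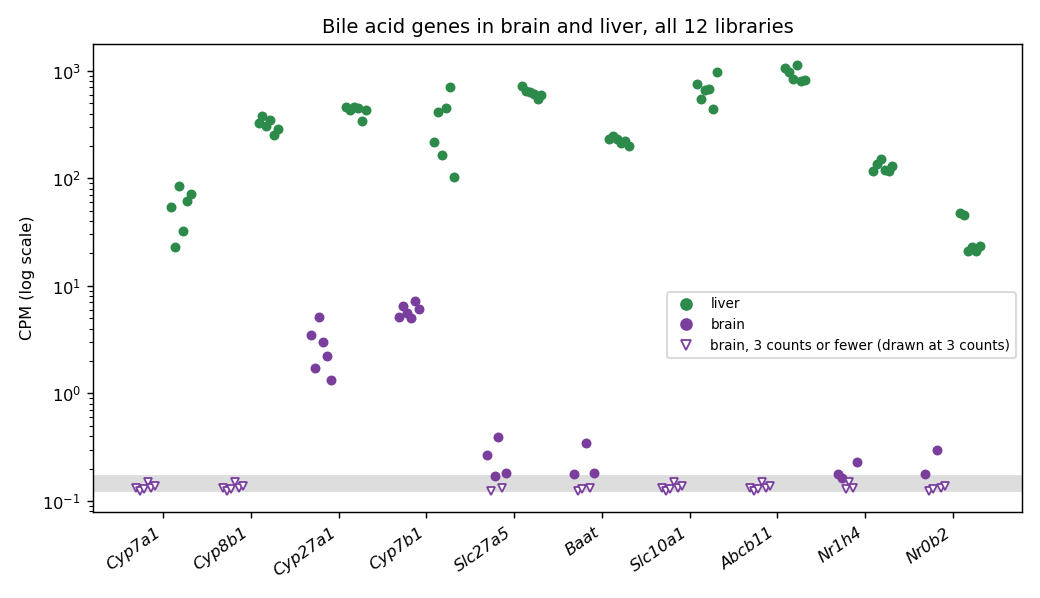
Level of each of the 10 bile acid genes in each of the 12 libraries (CPM, log axis). Open triangles mark libraries with 3 counts or fewer, drawn at 3 counts, and the grey band is the range of that floor. In brain, Cyp27a1 and Cyp7b1 lie well above the floor and the others at or near it.

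Promoter sequence was read for 3 genes on which the tissue and genotype comparisons turn: Cyp27a1, which had reads in every library of both tissues, Cyp8b1, which had 0 counts in every brain library, and Nr0b2, which had the largest genotype difference of the 10 in liver. The 250 bases before the RefSeq start (GRCm38.p6) are printed 5′ to 3′ on the strand of the gene. Capitals mark the TATA box, the CCAAT box and a motif known for HNF4 (CAAAGTCCA) on either strand. In the RefSeq table used here, start windows were matched for 6 of the 10 genes. Baat, Cyp7a1, Cyp7b1 and Slc27a5 were not matched in that table.
Cyp27a1, chr1:74713285-74713534, plus strand: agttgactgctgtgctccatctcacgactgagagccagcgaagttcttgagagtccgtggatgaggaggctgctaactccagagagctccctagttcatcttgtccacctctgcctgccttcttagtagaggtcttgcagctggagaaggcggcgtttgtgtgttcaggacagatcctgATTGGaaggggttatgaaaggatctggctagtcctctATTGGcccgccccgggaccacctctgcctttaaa
Cyp8b1, chr9:121916306-121916555, minus strand: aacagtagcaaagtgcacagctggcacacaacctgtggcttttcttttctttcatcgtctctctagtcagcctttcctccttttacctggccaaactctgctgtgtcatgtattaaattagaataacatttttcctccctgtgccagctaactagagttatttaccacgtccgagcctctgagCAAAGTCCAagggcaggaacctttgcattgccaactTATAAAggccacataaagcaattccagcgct
Nr0b2, chr4:133553126-133553375, plus strand: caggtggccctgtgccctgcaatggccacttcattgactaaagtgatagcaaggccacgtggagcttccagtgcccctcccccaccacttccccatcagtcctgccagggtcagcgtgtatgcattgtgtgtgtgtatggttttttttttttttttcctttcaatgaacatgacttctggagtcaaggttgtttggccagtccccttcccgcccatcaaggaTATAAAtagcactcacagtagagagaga

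The 3 windows differ in the motifs they hold. Both strands were searched for the TATA box TATAAA, the CCAAT box, the extended nuclear receptor half-site AAGGTCA, the inverted repeat of that half-site with 1 base between (the form bound by FXR), the HNF4 motif CAAAGTCCA, the palindromic HNF1 motif, the E-box CACGTG and the clock output motif TTATGTAA. No 2 matches in these windows shared a base. Positions count from 1 at the first base printed. Cyp8b1 has TATAAA at 220, which 12.4% of all 32851 RefSeq windows of this length hold, and CAAAGTCCA at 184, which 0.384% hold. Nr0b2 has TATAAA at 223 and CACGTG, the E-box, at 56, which 6.02% hold. Cyp27a1 has no TATAAA and has CCAAT on the reverse strand at 180 and 217, a motif found in 33.8% of windows. Cyp27a1 also had the most CpG dinucleotides of the 3 with 7, against 4 in Cyp8b1 and 3 in Nr0b2 and a median of 6 over all windows. The upstream one of the 2 Slc10a1 windows has TATAAA on the reverse strand at 123. No match to the extended half-site (4.08% of all windows), the inverted repeat (0.00609%), the HNF1 motif (0.00913%) or the clock output motif (0.819%) lay in the matched windows of the 6 genes, and the Abcb11 and Nr1h4 windows held none of the 8 motifs. The Nr1h4 window (89506659 to 89506908) lies inside the gene, whose span ends at 89533585 on the minus strand. It thus precedes an internal start, and the outermost start was not searched. A match describes letters and is not a measured site.

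In liver, none of the 10 bile acid genes passed the test between knockout and wild type. edgeR's quasi-likelihood test called 0 of 10 at an adjusted p of 0.05, where it called 0 of all 15329 genes (0%). At an unadjusted p of 0.05 it picked 1 of 10, Nr0b2, against 3.50% of all genes. The DESeq2 Wald test called 0 of the 10 and 10 genes in all. With the replicate number as a block, 0 of the 10 and 2 genes in all were called. The fitted log2 fold change was below 0 for 7 of the 10, against 48.7% of all genes, and the median was -0.14 for the 10 against 0.01 for all genes. Each gene had between 375 and 21347 counts per liver library.

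**Figure D2:**
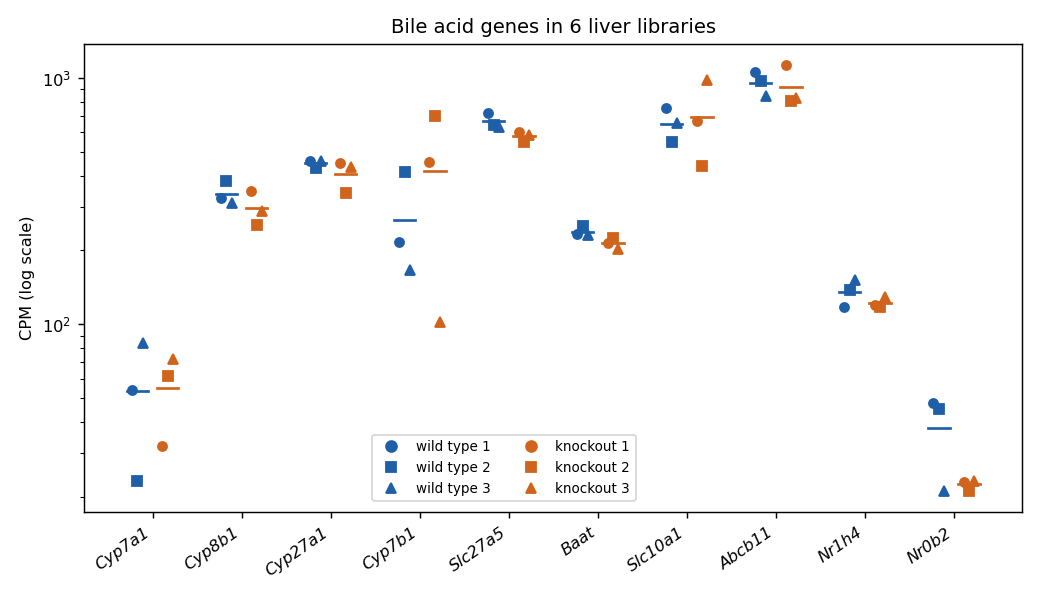
Level of each of the 10 bile acid genes in the 6 liver libraries (CPM, log axis). Points are libraries and bars are group means. The points of the genotypes lie apart without overlap only for Slc27a5 and Baat.

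Cyp7a1 (ENSMUSG00000028240.2, GRCm38 chromosome 4, 6265612 to 6275633), the rate-limiting enzyme, stood at 54.2, 23.1 and 84.0 CPM in wild-type livers 1 to 3 and at 32.1, 61.8 and 72.0 in knockout livers 1 to 3. The groups overlapped fully, with both extremes in wild-type libraries. The means were 53.8 ± 30.5 and 55.3 ± 20.8 CPM (SD, n = 3 each), and the log2 fold change was 0.05 ± 0.55 (SE) with a 95% interval of -1.34 to 1.45. The direction turned without wild-type liver 2 (-0.31), knockout liver 2 (-0.040) or knockout liver 3 (-0.19). Cyp8b1 (ENSMUSG00000050445.4, chromosome 9, 121914356 to 121916305, a single exon), the enzyme of cholic acid formation, was at 324, 381 and 309 CPM against 348, 253 and 287. Its knockout range included the lowest library and overlapped the wild type, with a log2 fold change of -0.19 ± 0.13 (interval -0.50 to 0.13). It was -0.093 without knockout liver 2, -0.099 without wild-type liver 2 and -0.30 without knockout liver 1.

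Of the alternative route, Cyp27a1 (ENSMUSG00000026170.6, chromosome 1, 74713574 to 74737892), the mitochondrial side-chain hydroxylase, was among the steadier genes. It measured 459, 431 and 459.8 CPM in the wild type, against 449, 339 and 434 in the knockout, where library 2 was lowest. The log2 fold change was -0.14 ± 0.12 (interval -0.43 to 0.15), and -0.028 without knockout liver 2. Cyp7b1 (ENSMUSG00000039519.6, chromosome 3, 18071950 to 18243338), the oxysterol hydroxylase, was the most scattered. It measured 216, 416 and 166 CPM in the wild type, against 454, 702 and 102 in the knockout, so that the knockout held both the highest and the lowest liver library. The means of 266 ± 132 and 419 ± 301 CPM gave a log2 fold change of 0.66 ± 0.75 with an interval of -1.24 to 2.56. Without knockout liver 2 it was 0.048, and over the other single libraries left out it ran from 0.41 without wild-type liver 3 to 1.13 without wild-type liver 2. Adjusted p was 0.999 for Cyp7a1 and 0.992 for the other 3 enzymes. An snRNA gene, Gm23686, lies on the same strand within the span of Cyp7b1. The deposited values of Cyp7b1 had no decimals in any of the 12 libraries, which does not show to which gene the reads in that stretch were assigned.

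Both conjugation enzymes had non-overlapping genotypes with small differences that failed the test. Slc27a5 (ENSMUSG00000030382.15, chromosome 7, 12988346 to 12998192), the ligase that joins bile acids to coenzyme A, was at 721, 643 and 633 CPM in the wild type and at 603, 550.0 and 588 in the knockout. Every knockout library lay below every wild-type library. The log2 fold change was -0.19 ± 0.11 (interval -0.44 to 0.06, adjusted p = 0.992 by edgeR). Baat (ENSMUSG00000039653.9, chromosome 4, 49489422 to 49506557), which transfers the bile acid to taurine, was at 232, 249.7 and 230.4 CPM against 213, 224 and 202. Its log2 fold change was -0.15 ± 0.09 (interval -0.35 to 0.06, adjusted p = 0.992 by edgeR). Over all genes tested, 5.45% had every knockout liver below every wild-type liver and 4.16% the opposite. The counts among the 10 were 2 and 0.

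The transporters showed no difference beyond their spread. Slc10a1 (ENSMUSG00000021135.8, chromosome 12, 80953183 to 80968705), the sodium-dependent uptake carrier NTCP, was at 751, 548 and 657 CPM in the wild type and at 670.2, 437 and 982 in the knockout. The knockout libraries thus spanned the whole wild-type range and beyond it on both sides. The log2 fold change was 0.10 ± 0.29 (interval -0.60 to 0.81), and it turned to -0.25 without knockout liver 3 and to -0.012 without wild-type liver 2. Abcb11 (ENSMUSG00000027048.15, chromosome 2, 69238282 to 69342616), the canalicular export pump BSEP, was at 1056, 968 and 842 CPM against 1123, 806 and 828. The groups overlapped, and the log2 fold change was -0.05 ± 0.16 (interval -0.42 to 0.31). It turned to 0.029 without wild-type liver 1, 0.026 without knockout liver 2 and 0.0061 without knockout liver 3. Adjusted p was 0.997 for both transporters in edgeR. Abcb11 shares its locus with the antisense gene Gm13613 and the pseudogene Gm13614 on the other strand. The library kit keeps strand, but whether the counting used it is not given in the sources used here, so reads from the 2 strands may be mixed.

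Of the receptors, Nr0b2 showed the largest genotype difference among the 10 relative to its error. Nr1h4 (ENSMUSG00000047638.15, chromosome 10, 89454234 to 89533585), the bile acid receptor FXR, was at 117, 137 and 152 CPM in the wild type and at 119, 117 and 129 in the knockout. The groups overlapped and the log2 fold change was -0.14 ± 0.11 (interval -0.40 to 0.12), with -0.052 without wild-type liver 3 and -0.23 without wild-type liver 1. Nr0b2 (ENSMUSG00000037583.2, chromosome 4, 133553376 to 133556536), the repressor SHP, was at 47.8, 45.1 and 21.0 CPM in the wild type and at 23.0, 21.1 and 23.2 in the knockout. Wild-type livers 1 and 2 were high, and wild-type liver 3 was the lowest of the 6, level with the knockout. The means were 38.0 ± 14.7 and 22.5 ± 1.15 CPM (SD, n = 3 each). The log2 fold change was -0.75 ± 0.31 with an interval of -1.50 to -0.00, an unadjusted p of 0.0496 and an adjusted p of 0.992 in edgeR.

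The Nr0b2 value moved with single libraries and stayed short of the adjusted threshold. Without wild-type liver 3 it was -1.04 with an adjusted p of 0.113, and over the other single libraries left out it came as close to 0 as -0.55. With the replicate block it was -0.68 (unadjusted p 0.114), which ends the unadjusted call. Adjusted p over all alternatives ran from 0.113 to 1.00.

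**Figure D3:**
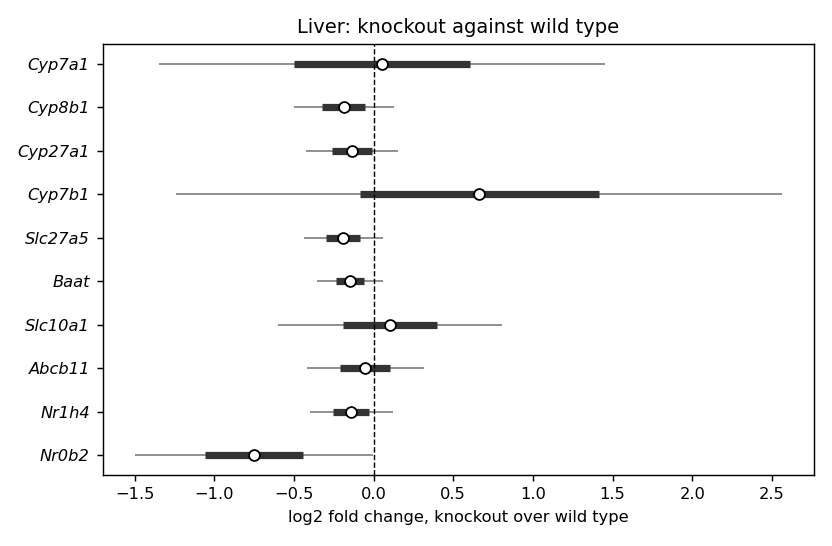
Knockout over wild type in liver, as fitted log2 fold change for each of the 10 bile acid genes. Thick bars are the SE and thin bars the 95% interval. Cyp7a1 and Cyp7b1 have the widest intervals, and the interval of Nr0b2 ends at 0.

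The 10 genes differed strongly in how steady they were across the 6 livers. Cyp7b1 had a coefficient of variation of 65.5% and a highest library 6.89-fold over the lowest. Cyp7a1 had 42.8% and 3.63-fold, Nr0b2 41.8% and 2.27-fold, and Slc10a1 27.6% and 2.25-fold. Among the 8506 genes with a mean of at least 10 CPM in liver the median was 9.68%, and only 1.02%, 2.36%, 2.61% and 7.18% of them varied more than these 4 genes in turn. The other 6 lay nearer that median, from 7.35% for Baat and 9.37% for Slc27a5 to 14.1% for Abcb11 and 14.2% for Cyp8b1. Of the 8506 genes, 70.8% varied more than Baat, 25.1% more than Abcb11 and 25.0% more than Cyp8b1. These values pool both genotypes. For Nr0b2 the spread lay in the wild type (38.0 ± 14.7 CPM), while the knockout livers were close together (22.5 ± 1.15 CPM).

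**Figure D4:**
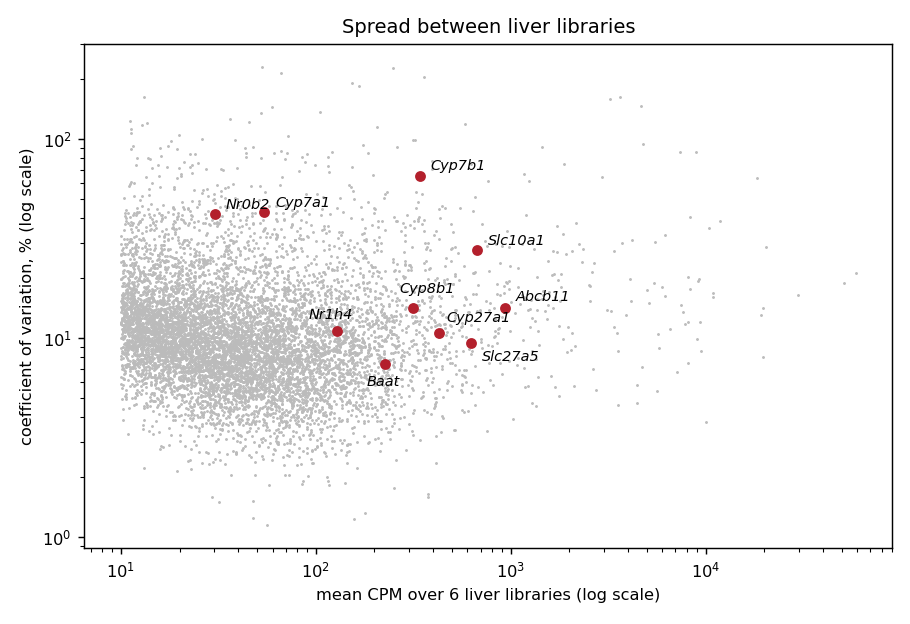
Coefficient of variation over the 6 liver libraries against mean level (CPM, log axis) for genes with a mean of at least 10 CPM, with the 10 bile acid genes in red. Cyp7b1, Cyp7a1 and Nr0b2 stand high above the median of 9.68%, and Baat lies below it.

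The livers numbered 3 differed from the other 4 in many genes, and Cyp7a1 and Cyp7b1 were among them. Both livers numbered 3 had more Cyp7a1 than each of the other 4 livers (84.0 and 72.0 against 23.1 to 61.8 CPM) and less Cyp7b1 (166 and 102 against 216 to 702 CPM). Over all genes tested, 10.7% had both libraries numbered 3 above the other 4 and 13.4% below. Of the 10 bile acid genes 1 did each, which is near those shares. Core clock genes separated the same libraries. Of 12 phase markers of the liver clock, 7 were above in both (Per1, Per2, Per3, Nr1d2, Dbp, Tef and Ciart) and 4 below (Arntl, Clock, Npas2 and Cry1).

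Arntl, an activator of the clock, was at 3.30 CPM in wild-type liver 3 and 3.81 in knockout liver 3, against 11.6 to 19.5 in the other 4. Per1, a repressor, was at 86.4 and 94.7 CPM against 13.0 to 35.7. Dbp, a clock output factor, was at 141 and 124 CPM against 41.6 to 80.7. The labels give no hour of collection, and the part of the clock in the Cyp7a1 and Cyp7b1 levels was not tested. With both livers numbered 3 left out, a choice made after these values were seen, 0 of the 10 genes were called. Nr0b2 then had a log2 fold change of -1.08 (adjusted p = 0.143 by edgeR).

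**Figure D5:**
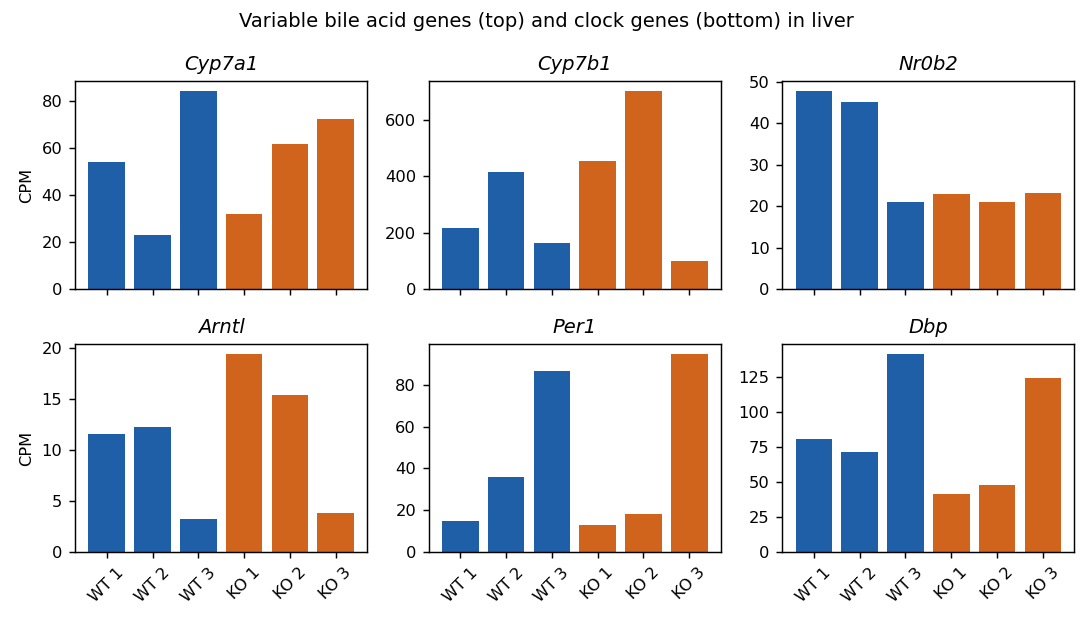
Level (CPM) in each liver library of Cyp7a1, Cyp7b1 and Nr0b2 and of the clock genes Arntl, Per1 and Dbp, with wild type in blue and knockout in orange. Both libraries numbered 3 are high in Cyp7a1, Per1 and Dbp and low in Cyp7b1 and Arntl.

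Knockout liver 2 stood apart in several of the genes. It was the lowest of the 6 livers for 6 of the 10 (Cyp8b1, Cyp27a1, Slc27a5, Slc10a1, Abcb11 and, by a small margin, Nr1h4), against 24.5% of all genes. It was the highest for 1, Cyp7b1, against 21.1% of all genes. Its summed level of 6 hepatocyte markers was also the lowest, at 74663 CPM against 87981 to 108496 in the others. Of the 6, Alb, Ttr and Cps1 were lowest in that library, Apob was highest there (21200.2 CPM), and Apoa1 and Tat lay within the range of the others. Its 6 Kupffer cell markers summed to 365 CPM against 143 to 201, and its 6 cholangiocyte markers to 155 against 33.7 to 54.2. Most of the latter was Spp1 (136 CPM), while Krt19, which defines bile duct cells, was at 1.80 CPM there and highest in knockout liver 1 at 7.37. None of these lists had a gene called between genotypes, and their part in the levels above was not tested. Without this library, 0 of the 10 genes were called.

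The likeness of patterns over the 6 livers is given as a description, since the values share libraries and scaling. For Cyp7a1 the closest of 8496 other genes by Pearson's r of log2(CPM + 1) were Gm37940 (0.967), Fmo4 (0.961), Ctps2 (0.948), Apex2 (0.938) and Gm14440 (0.937). For Nr0b2, close genes were Pacsin2 (0.983), Psmb4 (0.980), Slc35b2 (0.976) and Prdx3 (0.971). With 6 points, 11 genes passed 0.9 for Cyp7a1 and 56 for Nr0b2. Among the bile acid genes themselves the nearest partner was Nr0b2 for Slc27a5 (0.794, also the reverse) and for Baat (0.636). Cyp8b1 and Abcb11 were nearest to each other (0.735), Cyp27a1 to Slc27a5 (0.718) and Slc10a1 to Cyp27a1 (0.691). Nr1h4 was nearest to Cyp27a1 (0.398), Cyp7b1 to Baat (0.389) and Cyp7a1 to Slc10a1 (0.292), so these 3 had no close partner. The most opposed pairs were Cyp7b1 with Slc10a1 (-0.88) and Cyp7a1 with Cyp8b1 (-0.77).

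In brain, Cyp27a1 and Cyp7b1 did not pass the test between genotypes. edgeR called 0 of 2, and 0 of 18075 genes in all (0%), as did DESeq2, with 0 of 2 and 0.675% of all genes at an unadjusted p of 0.05. Cyp27a1 was at 3.45, 1.72 and 5.09 CPM in the wild type and at 3.02, 2.21 and 1.33 in the knockout. The groups overlapped, and the log2 fold change was -0.66 ± 0.46 (SE) with an interval of -1.76 to 0.43. Without wild-type brain 3 it shrank to -0.25. Cyp7b1 was at 5.14, 6.48 and 5.56 CPM against 5.04, 7.23 and 6.11, with a log2 fold change of 0.09 ± 0.18 and an interval of -0.35 to 0.53 (-0.038 without knockout brain 2). The ranges of the genotypes overlapped nearly fully. The fitted change was below 0 for 1 of the 2, against 51.7% of all genes. Neither gene had genotypes without overlap, where 2.14% of all genes had every knockout brain below every wild-type brain and 2.09% the opposite.

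Non-neuronal content varied between brain libraries. Markers of the choroid plexus, the epithelium that makes cerebrospinal fluid, summed to 190.0, 3.53 and 353 CPM in wild-type brains, against 495, 7.19 and 8.82 in knockout brains. In wild-type brain 2 the defining marker Slc4a5 was at 0. The 3 libraries with the high sums were also the 3 with the most Cyp27a1. Oligodendrocyte markers summed to 2593, 1584 and 5372 CPM in wild-type brains, against 1886, 2921 and 1777 in knockout brains. Wild-type brain 3 was highest in both these markers and Cyp27a1, but the order did not hold throughout. Knockout brain 2, with the next highest marker sum, had 2.21 CPM of Cyp27a1, below wild-type brain 1 (3.45) and knockout brain 1 (3.02). All 6 markers of each list were tested and 0 were called. Their part in the Cyp27a1 levels was not tested.

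The other 4 genes with any reads in brain stayed at a few counts in both genotypes. Wild-type libraries 1 to 3 held 4, 4 and 1 counts of Nr1h4 against 1, 0 and 5 in knockout libraries, and 4, 0 and 3 of Nr0b2 against 6, 0 and 0. Baat had 4, 2 and 3 against 7, 1 and 4, and Slc27a5 had 6, 2 and 4 against 8, 1 and 4. No fold between genotypes is given at these counts.

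The genotype effect was not shown to differ between the tissues for any of the 10. The interaction term of edgeR, fitted on all 12 libraries, called 0 of 10 and 0 of 20141 genes (0%), with 0 of 10 and 2.43% of all genes at an unadjusted p of 0.05. The effect in liver minus that in brain was 0.51 ± 0.46 for Cyp27a1 (interval -0.50 to 1.51) and 0.56 ± 0.78 for Cyp7b1 (interval -1.16 to 2.27) on the log2 scale. With single libraries left out, the value of Cyp27a1 ran from 0.12 without wild-type brain 3 to 0.84 without wild-type brain 2, and that of Cyp7b1 was -0.038 without knockout liver 2. The genes at or near 0 in brain give no usable estimate. DESeq2 called 1 gene in all and the fit with the replicate block 2, none of them among the 10.

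None of 47 other bile acid genes passed the test in liver. This list, chosen by known function, holds 14 enzymes, 15 transporters and 18 regulators. In liver 41 were tested (13, 13 and 15) and edgeR called 0, as it called 0 of all 15329 genes (0%). At an unadjusted p of 0.05 it picked 0 of 41, against 3.50% of all genes. With the replicate block 0 were called and 3 fell under an unadjusted 0.05, against 6.41% of all genes. These were Nr1i3 (log2 fold change -0.50, p 0.0150), Hsd3b7 (-0.29, p 0.0315) and Foxa2 (0.28, p 0.0345), with adjusted p from 0.745 to 0.765 in edgeR. Without the block the log2 fold change was below 0 for 25 of 41, against 48.7% of all genes. The median was -0.06 for the 41 and 0.01 for all genes. The 3 with the smallest unadjusted p in edgeR's test without the block were Akr1c6, Slc10a2 and Hsd3b7, each with an adjusted p of 0.992.

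Akr1c6, an aldo-keto reductase, was at 932, 954 and 965 CPM in wild-type livers and at 807, 716 and 851 in knockout livers, with no overlap. Its log2 fold change was -0.26 ± 0.11 (unadjusted p 0.0542). Of the 41, Abcc2 also lay lower in every knockout liver and Nr1h3 higher, so that 2 and 1 genes had no overlap beside 5.45% and 4.16% of all genes. Slc10a2, known as the uptake carrier of the ileum and of bile ducts, was at 13.4, 13.7 and 14.2 CPM against 13.6, 23.1 and 16.7. Its log2 fold change was 0.39 ± 0.20 (unadjusted p 0.0851), and knockout liver 2 was the highest. Hsd3b7, an enzyme of both routes, was at 535, 463 and 365 CPM against 429, 331 and 339.7. Its log2 fold change was -0.30 ± 0.16 (unadjusted p 0.10 by edgeR). Its deposited values had no decimals in only 8 of 12 libraries, so reads may be shared with other genes. Fgf15, the gut hormone that represses Cyp7a1, had 0 counts in 5 livers and 1 in knockout liver 1.

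In brain 23 of the 47 were tested between genotypes and edgeR called 0, as it called 0 of all 18075 genes (0%). At an unadjusted p of 0.05 it picked 0 of 23, against 0.675% of all genes. Slc27a2, a very long chain acyl-CoA synthetase, had the smallest unadjusted p (0.0529). It was at 2.61, 2.50 and 3.85 CPM in the wild type and at 1.48, 2.38 and 1.84 in the knockout, with no overlap, where 2.14% of all genes had every knockout library below every wild-type one. Its log2 fold change was -0.66 ± 0.28. Next came Hsd17b4, a peroxisomal beta-oxidation enzyme, at -0.13 ± 0.10, and the membrane flippase gene Atp8b1 at 0.26 ± 0.26.

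Between the tissues, most of the list was higher in liver. Of 41 tested, 36 were called higher in liver and 4 higher in brain, beside 34.7% and 43.9% of all genes. Genes of the list at or near 0 counts in brain entered this test through liver, so their calls were largely set in advance. Named on the liver side, by fitted fold, were Akr1c6, the uptake carrier Slco1a1, the liver transcription factor Hnf4a, the mouse hydroxylase Cyp2c70 and the reductase Akr1d1. These 5 had 0 counts in wild-type brain, and liver was at least 7420-fold, 6543-fold, 5995-fold, 3249-fold and 1274-fold higher in that order. These are lower bounds, which do not rank them against genes with a few brain reads. On the brain side stood Cyp46a1, the cholesterol hydroxylase of neurons, at 77.7 ± 28.3 CPM in wild-type brain and 1.62 ± 0.875 in wild-type liver. Its log2 difference was 5.60 ± 0.43 (SE; adjusted p = 9.61e-06 by edgeR). The transporter genes Abcb1a (2.55 ± 0.24) and Abcc4 (1.39 ± 0.16) and the coactivator Ppargc1a (1.64 ± 0.21) followed on the log2 scale. Abcb1a had decimals in every library, so its reads may be shared with other genes. With library totals alone, 4 of the list were called higher in brain and 34 higher in liver.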

How the data were processed

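Total RNA libraries of brain and liver were sequenced as single-end reads after ribosomal RNA depletion with a stranded ligation kit, per the labels' protocols. What the authors deposited were expected counts for each gene in each library, neither normalized nor pooled, and 5.06% to 5.71% of all 55450 values in a library, zeros included, were not exactly whole (no tolerance). The submitters' processing notes name cutadapt, STAR and the build mm10; how reads were counted, and whether by strand, is not given in the sources used here. Reads shared by overlapping or similar genes can therefore be split between them.

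The expected counts were rounded. edgeR 4.0.16 (R 4.3.3) was run on the whole table with TMM scaling, filterByExpr by group (minimum count 10, minimum total 15), the robust quasi-likelihood F-test and Benjamini-Hochberg adjustment over all genes tested (threshold 0.05). Each comparison used its own 6 libraries and the interaction all 12. SE is the absolute log2 fold change over the square root of F, and intervals are 95%. CPM use TMM effective sizes over the 12 libraries. Replicate pairs differed by 27.2 to 228 times the degrees of freedom in a chi-square statistic, so each library counted once. The fits were also run on simulated counts with less spread between libraries than these data. That run checks the code and gives no measure of power or error rate here.

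Wild-type and knockout livers share replicate numbers in the titles. Deviations from the group means correlated at 0.29, 0.28 and 0.35 for numbers 1 to 3 over 13326 genes, so the numbers may pair the livers. The main fits took no account of this, and their SE, intervals and p-values treat the libraries as unpaired. The fit with the replicate block is given as an alternative. The 10 genes, the list of 47 other bile acid genes and the marker lists were chosen with earlier results of these data known. The genes named were all 10, and of the 47 those called (up to 5 per direction by fold) or, where none was called, the 3 with the smallest unadjusted p. For likeness they were the 5 nearest to Cyp7a1 and to Nr0b2 and the nearest partner of each of the 10; 1 gene near Nr0b2 is not reported here. Other genes named are markers or were chosen after their values were seen (Fgf15 and, in the closing section, Nr1i3, Klb, Foxa2 and Cyp39a1). Alternatives were scaling by DESeq2 size factors or library totals, the Wald test of DESeq2 1.42.0, keeping every gene with 1 count, keeping genes with a mean of 1 CPM, estimation that is not robust, a threshold of 0.1, fitting all 12 libraries together, the replicate number as a block, knockout libraries for the tissue comparison, and leaving out each replicate. Coordinates are 1-based from GENCODE M21 on GRCm38, and promoter windows are from RefSeq on GRCm38.p6.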

Additional observations from a re-analysis of the deposited data

How the results depend on the processing

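The number of the 10 bile acid genes called was the same in every alternative run, which was 0 between genotypes in liver and in brain, 10 between tissues and 0 for the interaction. The count over all genes in liver moved from 0 to 10 with the DESeq2 Wald test, 4 with no filter beyond 1 count and 2 with the replicate block, and was 0 to 1 with single replicates left out (1 without wild-type liver 2). For the interaction it moved from 0 to 1 with DESeq2 and 2 with the replicate block. With the replicate block the counts for the 10 genes were 0, 0, 10 and 0, those for the other 47 genes 0, 0, 40 and 0, and the tissue comparison called 14496 genes in all; these counts for the 10 and the 47 genes were the same without the block. In liver the block ended the unadjusted call of Nr0b2 and brought Nr1i3, Hsd3b7 and Foxa2 under an unadjusted p of 0.05. Deviations of brains with the same number correlated at 0.58, 0.59 and 0.00 for numbers 1 to 3, so pairing of the brains was left undecided. Those of wild-type brain and liver correlated at 0.06, 0.03 and 0.04, so the numbers were not taken to pair these tissues. Directions without a call turned for a few genes when single replicates were left out. In liver the log2 fold change ran from -0.31 to 0.53 for Cyp7a1, from -0.20 to 0.029 for Abcb11 and from -0.25 to 0.35 for Slc10a1, and Slc10a1 was at -0.24 with both livers numbered 3 left out, which was added after seeing the data. Cyp7b1 ran from -0.038 to 0.21 in brain and from -0.038 to 1.03 for the interaction. The cause was not tested. With 3 libraries per group the spread limits what can be seen for Cyp7a1 and Cyp7b1 in liver, and low counts do so for the other 8 genes in brain.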

Other observations

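Of the 41 other bile acid genes tested in liver, 9 were above the other 4 livers in both libraries numbered 3 and 6 below, where 10.7% and 13.4% of all genes were. The difference from all genes was not tested, and 4 examples chosen after their values were seen follow. The nuclear receptor CAR (Nr1i3) was at 369.6 CPM in wild-type liver 3 and 206 in knockout liver 3, against 122 to 195 in the other 4. The oxysterol hydroxylase Cyp39a1 was at 26.5 and 28.2 CPM against 12.7 to 19.9, and the FGF co-receptor Klb at 56.2 and 65.9 against 35.5 to 54.6. The liver transcription factor Foxa2 was lower, at 17.8 and 17.4 CPM against 20.8 to 54.2. The labels give no hour of collection for these livers, and its part was not tested.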
